A study of Mus musculus with 18 samples.

Results

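The genes described are the Dlx genes of the subpallium: Dlx1, Dlx2, Dlx5 and Dlx6, and Dlx6os1, a long non-coding RNA gene transcribed against Dlx6. They were taken by symbol from the gene list of the deposited matrices, where the 5 symbols are among 55228 and fill 6 of 55335 rows, because Dlx6os1 names 2 rows. Nuclei came from forebrains of mouse embryos at embryonic day 14 (E14) of the Myt1l S710fsX line on a C57BL/6 background, in which a frameshift interrupts Myt1l, the gene of a neuronal transcription factor. The allele is a germline one, present in every cell of an embryo that inherited it. From Het by Het crosses, 3 embryos each were homozygous for it (KO), heterozygous (Het) or WT. Each animal was sequenced in 2 runs of single-nucleus RNA-seq with combinatorial barcoding. Levels are CPM, the gene's UMIs (unique molecular identifiers) per 1000000 UMIs of the same animal and group of nuclei, and n counts animals.

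Dlx genes encode homeodomain transcription factors and lie in the genome as convergently transcribed pairs, Dlx1 with Dlx2 and Dlx5 with Dlx6. In the subpallium, the ventral forebrain that makes GABAergic neurons, Dlx1 and Dlx2 come on first in dividing progenitors and are needed for Dlx5 and Dlx6, which stay on as neurons differentiate. Dlx6os1, also called Evf, starts between Dlx5 and Dlx6 and runs across a conserved enhancer and then Dlx6 on the opposite strand.

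In GENCODE vM21 (GRCm38, the assembly of mm10), Dlx1 lay at chr2:71528113-71533981 on the plus strand and Dlx2 at chr2:71543408-71546754 on the minus strand, with 9426 bases between them. Dlx6 lay at chr6:6863334-6868568 on the plus strand and Dlx5 at chr6:6877805-6882085 on the minus strand, with 9236 bases between them. Dlx6os1 covered chr6:6820189-6871592 on the minus strand and thus all of Dlx6, and the antisense gene Dlx1as covered all of Dlx1. No source used here says whether counting kept to 1 strand, so reads of Dlx6 and Dlx6os1, or of Dlx1 and Dlx1as, cannot be told apart with certainty. In the matrices 0.0499% of Dlx6 UMIs and 0.151% of Dlx6os1 UMIs were not whole numbers, and none of these fractions was shared between the genes.

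Start-site sequence was taken from RefSeq (GRCm38.p6), which held windows for 3 of the 5 members, and is shown for 1 gene of each locus to compare both. TAATTA, a core that homeodomain proteins bind and that reads the same on both strands, stands in capitals, and it occurred in 5.29% of 32851 mouse windows of 250 bases before to 50 after a start site. The first sequence is the 250 bases before the Dlx2 start at chr2:71546755-71547004 (minus strand), which overlap no annotated gene. The second is the window of the longer Dlx6os1 transcript at chr6:6869484-6869783 (minus strand), inside the Dlx6os1 gene and exon.
Dlx2: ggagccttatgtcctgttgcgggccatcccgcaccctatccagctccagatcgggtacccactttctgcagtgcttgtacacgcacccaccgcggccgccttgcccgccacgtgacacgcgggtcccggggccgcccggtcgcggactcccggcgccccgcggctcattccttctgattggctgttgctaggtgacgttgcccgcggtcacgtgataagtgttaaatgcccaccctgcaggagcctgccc
Dlx6os1: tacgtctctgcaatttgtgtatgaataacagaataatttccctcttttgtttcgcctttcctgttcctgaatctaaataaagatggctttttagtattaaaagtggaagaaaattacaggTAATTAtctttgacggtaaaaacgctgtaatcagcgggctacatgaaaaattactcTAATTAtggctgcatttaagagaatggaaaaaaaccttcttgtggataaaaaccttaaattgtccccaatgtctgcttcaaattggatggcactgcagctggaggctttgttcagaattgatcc
The Dlx6os1 window held TAATTA at 2 places, starting at offsets -130 and -74 from the start site, and was 35.7% G and C, whereas the whole Dlx2 window held none and was 66.3% G and C. A further Dlx6os1 window at chr6:6861634-6861933 held 1 TAATTA and 1 AAGTTT, the core bound by proteins of the MYT1 family, read on both strands and found in 14.4% of all windows. A match is a description of the letters and not of binding.

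After filtering, 194373 of 261143 barcodes were kept, with a median of 2518 UMIs, and 14780 to 26079 nuclei per animal. Clustering without the Dlx genes gave 29 clusters, which were named from marker lists. The inhibitory progenitor-like class was 1 cluster of 8705 nuclei, led by 4930557F10Rik, Slc18a2 and Stk33 and holding 7 of its 9 markers. Nkx2-1 of the medial ganglionic eminence was among its 10 leading genes, and it also held 10 of 12 inhibitory neuron markers. The inhibitory neuron-like class was 8 clusters with 49896 nuclei, and the excitatory neuron-like class 5 clusters with 50892 nuclei. Unnamed clusters held 15.1% of nuclei, and a diencephalic cluster of 721 nuclei came from Het 1 alone. Barcodes found in more than 1 library numbered 3740, of which 3429 were shared between animals, and none was removed for this. Of 257403 distinct barcodes, 311 were shared by both runs of 1 animal only.

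Dlx1 and Dlx2, the genes that act first, were highest in progenitor-like nuclei and several fold lower in inhibitory neuron-like nuclei in all 9 animals. Dlx1 was at 1004 ± 81.6 CPM (SD, n = 9 animals) in inhibitory progenitor-like and 205 ± 20.2 CPM in inhibitory neuron-like nuclei. Dlx2 was at 159 ± 16.6 and 40.4 ± 5.96 CPM in the same classes. Within each animal the neuron-like level of Dlx1 was 20.4 ± 1.10% of the progenitor-like level, and that of Dlx2 25.4 ± 3.07%.

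Dlx5 and Dlx6, which follow them, kept more of their level. Dlx5 was at 39.0 ± 4.06 CPM in progenitor-like and 25.3 ± 4.97 CPM in neuron-like nuclei, or 64.9 ± 10.9% within animals. Dlx6 was at 47.6 ± 3.83 and 31.8 ± 3.97 CPM, or 67.0 ± 8.19%. Dlx6os1 stood between the pairs, at 2900 ± 234 and 1518 ± 220 CPM, or 52.2 ± 4.99%. Every animal's percentage of Dlx1 lay below every percentage of Dlx5 (43.1 to 81.5%), Dlx6 (48.4 to 78.3%) and Dlx6os1 (45.2 to 62.7%). These comparisons describe classes that were themselves built from the same nuclei, and no test was made on them.

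**Figure D1:**
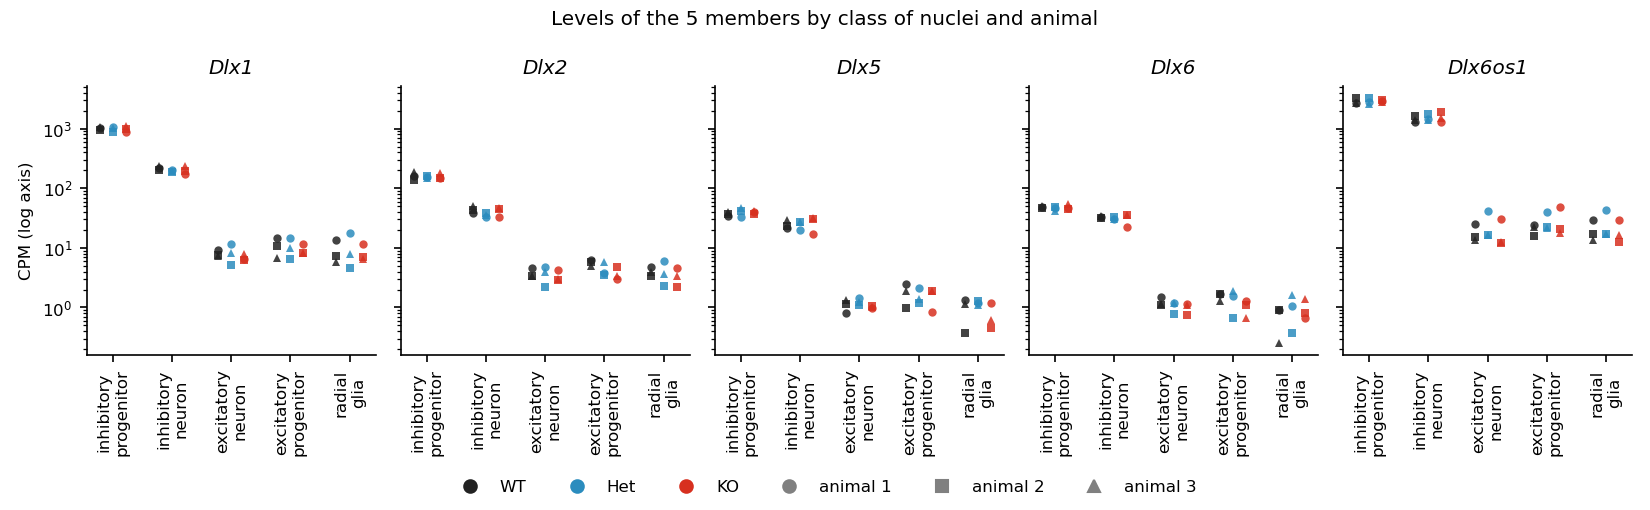
CPM (log axis) of each member in 5 classes of nuclei, where excitatory progenitor stands for the intermediate progenitor-like class; each point is 1 animal, with its color giving the genotype and its shape the replicate number. Both inhibitory classes lie far above the other classes for every member, the step from progenitor to neuron is larger for Dlx1 and Dlx2 than for Dlx5 and Dlx6, and the genotypes overlap.

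The share of nuclei with at least 1 UMI showed how sparse most members were. Dlx1 had a UMI in 78.5 ± 2.67% of progenitor-like and 32.1 ± 2.28% of neuron-like nuclei, and after thinning each nucleus to 800 UMIs in 50.7 ± 2.32% and 15.3 ± 1.44%. Dlx6os1 had one in 78.0 ± 2.13% and 73.6 ± 4.10%, or 68.1 ± 1.87% and 52.1 ± 3.44% after thinning. Dlx2, Dlx5 and Dlx6 had a UMI in 30.6, 8.87 and 10.9% of progenitor-like and 9.48, 6.27 and 7.73% of neuron-like nuclei, so most nuclei had none of these UMIs at this depth. For comparison, microglia and macrophage-like nuclei, which should lack these genes, had a Dlx1 UMI in 6 of 320 nuclei (1.88%, 95% Wilson interval 0.862 to 4.03%) and a Dlx6os1 UMI in 18 (5.63%, 3.59 to 8.72%), at a median of 2192 UMIs against 2253 in progenitor-like and 2349 in neuron-like nuclei. Intervals here cover counting error only.

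The levels also moved with the run, which the labels name by number without saying how the runs differed. In inhibitory progenitor-like nuclei Dlx2 was at 75.6 to 107 CPM in run 1 and 161 to 217 CPM in run 2, a median ratio of 2.22 within animals. Dlx1 was higher in run 2 as well, by a median of 1.53-fold, and both differences held in 9 of 9 animals. Dlx6os1 went the other way in 9 of 9 animals, at a median of 3267 CPM in run 1 and 2756 CPM in run 2, and in neuron-like nuclei it was 1.43-fold higher in run 1. The contrast between the classes was present within each run, with the neuron-like level at a median of 22.9% of the progenitor-like level for Dlx1 in run 1 and 19.7% in run 2. For Dlx2 it was 33.1% and 23.7%, for Dlx5 62.9% and 62.5%, for Dlx6 76.5% and 67.6%, and for Dlx6os1 62.9% and 48.7%. Every animal was in both runs, and the part of the run in the summed levels was not tested.

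The members differed in how they were spread over the inhibitory clusters. Dlx1 and Dlx2 fell away steeply from the progenitor cluster, with a median 46.9-fold and 30.5-fold between it and the lowest cluster within animals. For Dlx5 the highest and lowest clusters differed 3.67-fold, for Dlx6 2.49-fold and for Dlx6os1 12.1-fold.

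After the progenitor cluster, the highest Dlx1 was in cluster 12, led by Sfta3-ps, Sst and Lhx6, genes of the medial ganglionic eminence lineage, and in cluster 21, led by Prox1os, Pdzrn3 and Prox1 of the caudal one. Dlx1 reached 446 CPM (398 to 505 over the animals) in cluster 12 and 407 CPM (311 to 485) in cluster 21, ranges that overlap each other but not those of the next clusters. Clusters 17 (Prdm12, Fgd5, Dcdc5), 20 (Spock3, AW551984, Gm44644), 10 (Drd2, Six3os1, Six3) and 6 (Nxph2, Dgkg, Maf) followed at means of 258, 205, 189 and 184 CPM, each overlapping its neighbor. Cluster 13, led by Ebf1, Tmcc3 and Zfp503, was separate from these at 50.7 CPM (42.9 to 64.0), and cluster 18, led by Ikzf1, Rarb and Gm14133 and with the striatal genes Tac1 and Ebf1 among its leading genes, was the lowest at 23.1 CPM, with 33.9 CPM in its highest animal.

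Dlx2 fell in a similar order, with 82.8 CPM in cluster 12, 67.3 in cluster 21 and 54.1 in cluster 6, and with clusters 13 and 18 again at the bottom at 9.58 to 15.4 CPM and 4.14 to 7.83 CPM. Over the 9 inhibitory clusters the log2 levels of Dlx1 and Dlx2 had a Pearson r of 0.965. The clusters share libraries and depth, so this is a description.

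Dlx6 did not follow that order. It was highest in cluster 13 at 48.6 CPM (35.3 to 60.6), which overlapped the progenitor cluster at 47.6 CPM (41.3 to 55.0), and in 6 of 9 animals cluster 13 was not below the progenitor cluster. In the same cluster 13 Dlx1 was at 5.09 ± 0.924% and Dlx2 at 8.17 ± 1.15% of the progenitor level, while Dlx6 was at 102 ± 12.8% and Dlx5 at 71.4 ± 16.9%. Cluster 18 showed the same split on a lower scale, with Dlx1 at 2.30 ± 0.437% and Dlx6 at 48.5 ± 7.09%. Pearson r between Dlx1 and Dlx6 over the 9 clusters was 0.305, and between Dlx5 and Dlx6 0.701.

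Dlx5 ran from 39.0 CPM in the progenitor cluster and 38.4 CPM (19.0 to 53.5) in cluster 21 down to 24.9 CPM in cluster 17, with each neighbor in the order overlapping the next. Below these stood cluster 18 at 13.1 CPM and cluster 20 at 9.82 CPM, which overlapped each other. Within animals, cluster 12 was at 81.8 ± 13.2% and cluster 17 at 64.1 ± 8.78% of the progenitor level. These 2 and clusters 13, 10 and 6 were below it in 9 of 9 animals, and cluster 21 in 5 of 9. KO 1 had the lowest Dlx5 of the 9 animals in 3 of the 9 clusters.

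Dlx6os1 was highest outside the progenitor cluster. It was at 3242 CPM (2866 to 3963) in cluster 21 and 3021 CPM (2715 to 3769) in cluster 12, against 2900 CPM (2641 to 3252) in the progenitor cluster. Cluster 21 was above the progenitor cluster in 9 of 9 animals, at 112 ± 8.65% of its level, and cluster 12 in 7 of 9, although the ranges of all 3 overlap. The lowest levels were 703 CPM in cluster 13, 613 CPM in cluster 20 and 271 CPM (233 to 329) in cluster 18.

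**Figure D2:**
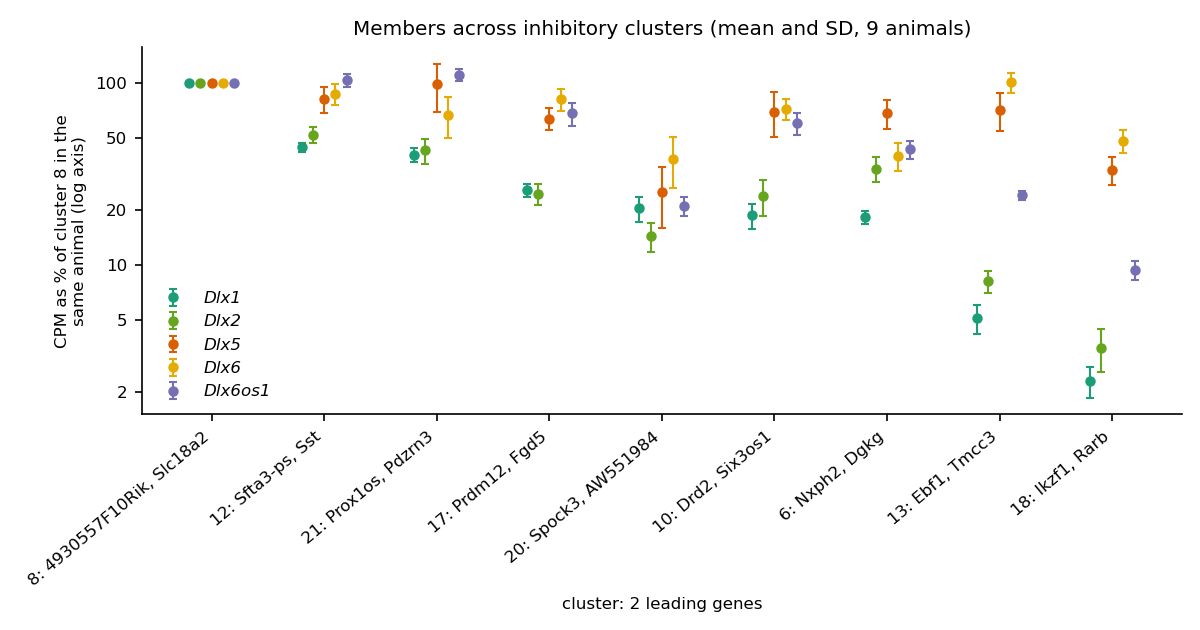
Level of each member in the inhibitory clusters as a percentage of the same animal's progenitor cluster (cluster 8), on a log axis; points are means and bars SDs over 9 animals, and each cluster carries its 2 leading genes. In cluster 13 Dlx6 is at 102% and Dlx1 at 5.09%, and in cluster 21 Dlx6os1 is at 112%.

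The ratio of Dlx6os1 to Dlx1 UMIs, compared between classes for the same gene pair, put this shift in 1 number. It had a median over animals of 2.61 (2.48 to 3.62) in progenitor-like and 7.32 (5.85 to 9.82) in neuron-like nuclei, ranges that do not overlap. The ratio itself moved with the run, from 4.31 (3.68 to 5.31) in run 1 to 2.41 (2.00 to 3.13) in run 2 in progenitor-like nuclei and from 11.4 (7.96 to 14.7) to 5.93 (5.11 to 8.18) in neuron-like nuclei, and the classes did not overlap within either run. Summed over animals it reached 14.2 in cluster 13, but in cluster 20 it was 2.95, beside 2.93 in the progenitor cluster.

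Within the progenitor cluster the members differed in how they went with the genes of GABA synthesis. Gad1 and Gad2 encode the enzymes that make GABA, and nuclei of 2000 to 3000 UMIs were divided into 1879 with and 650 without a UMI of either, with at least 26 nuclei per animal and side. Dlx6os1 was at a median of 3382 CPM (3161 to 3794) with Gad UMIs and 1087 CPM (698 to 1438) without, higher in 9 of 9 animals and without overlap.

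Dlx6 went the same way in 9 of 9 animals, at medians of 54.2 and 30.1 CPM, and Dlx5 in 7 of 9, at 38.7 and 25.3 CPM. Dlx1 did not, with medians of 1056 and 1076 CPM and a higher value with Gad UMIs in 3 of 9 animals. Dlx2 was lower with Gad UMIs in 8 of 9, at 153 and 196 CPM. The split pooled both runs, between which the levels of Dlx1, Dlx2 and Dlx6os1 differed, and was not made within a run. A UMI of Top2a, Mki67, Cenpf or Cdk1, genes of dividing cells, or several of them, was present in 98.8% of nuclei with and 97.1% without Gad UMIs. Seen from the other side, 86.6% of the 1945 such nuclei with a Dlx6os1 UMI had a Gad UMI and 33.4% of the 584 without, whereas the shares with and without a Dlx1 UMI were 74.1% and 75.2%.

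**Figure D3:**
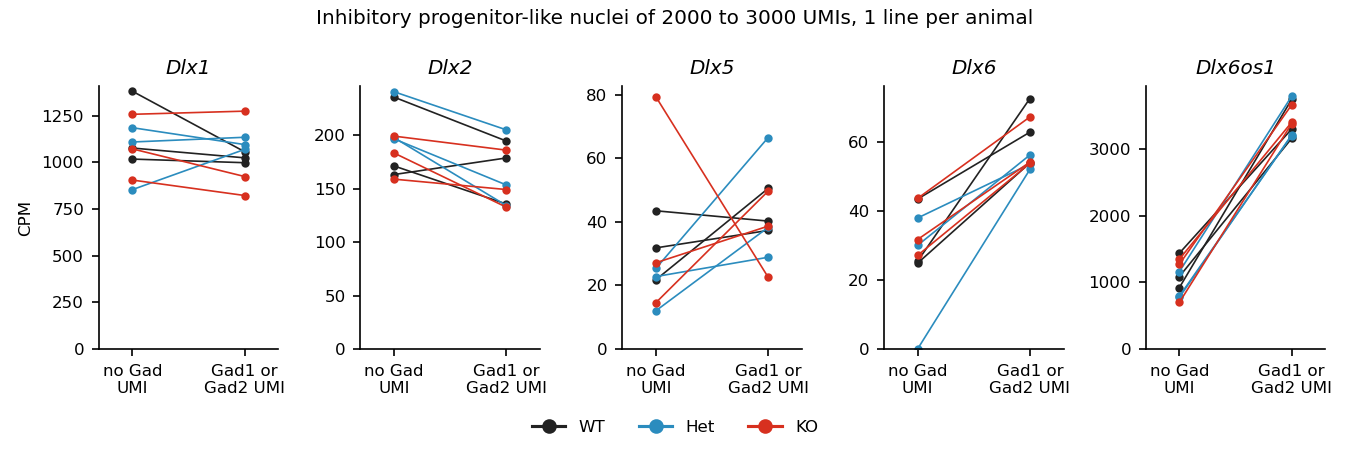
CPM of each member in inhibitory progenitor-like nuclei of 2000 to 3000 UMIs without and with a Gad1 or Gad2 UMI; each line joins the values of 1 animal, colored by genotype, and every axis starts at 0. All 9 lines rise for Dlx6os1 and Dlx6, whereas the lines for Dlx1 run in both directions.

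Members were also found in some unnamed clusters. Cluster 5, dividing nuclei led by Otx2os1, Ano1 and Gm29478, had Dlx1 at 148 ± 16.3 CPM and Dlx2 at 44.3 ± 4.19 CPM, but Dlx5 at 3.79 ± 1.20, Dlx6 at 5.06 ± 0.729 and Dlx6os1 at 173 ± 29.4 CPM. Its Dlx2 level is thus close to the neuron-like mean, with Dlx5 and Dlx6 several fold below theirs. Cluster 19, led by Gbx1, Pde3a and Lhx8, had Dlx1 at 95.6 ± 10.7 CPM and Dlx6os1 at 831 ± 94.2 CPM.

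Over all 29 clusters, the genes whose log2(CPM + 1) followed each member most closely were sought among 11652 genes other than the Dlx genes, as a description without a test. Between members, r was 0.971 for Dlx1 and Dlx2, above that of either with any of these genes, and 0.969 for Dlx6 and Dlx6os1, below that of the nearest gene of each. The clusters share libraries and depth. For Dlx6os1 the nearest of these genes were Gad1 (Pearson r 0.972), Gm48692 (0.970) and Gm14204 (0.966). For Dlx6 they were Gm14204 (0.976), Gad2 (0.968) and Slc32a1, the vesicular GABA transporter (0.967), and for Dlx5 Gm48692 (0.970), Slc32a1 (0.953) and Gad2 (0.949). Dlx1 was followed by Gm38505 (0.902), the synaptic adhesion gene Nrxn3 (0.9005) and Gm48692 (0.9002), and Dlx2 by Stk33 (0.913), Gm38505 (0.881) and Sox1ot (0.880), so no gene of GABA synthesis or transport was among the 3 nearest such genes of either.

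A residual signal of the members was present in excitatory nuclei. In excitatory neuron-like nuclei Dlx1 was at 7.74 ± 1.90 CPM, Dlx2 at 3.59 ± 0.826, Dlx5 at 1.12 ± 0.191, Dlx6 at 1.10 ± 0.228 and Dlx6os1 at 20.4 ± 10.1 CPM (SD, n = 9 animals). Radial glia-like nuclei had like levels, with Dlx1 at 9.17 ± 4.35 and Dlx6os1 at 21.8 ± 10.3 CPM, and so had excitatory intermediate progenitor-like nuclei, at 10.1 ± 3.00 and 25.9 ± 10.6 CPM.

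Few excitatory nuclei carried it. A Dlx1 UMI was found in 2.08 ± 0.313% of excitatory neuron-like nuclei, and a Dlx6os1 UMI in 3.71 ± 0.895%, at a median depth of 2821 UMIs. Microglia and macrophage-like nuclei had 1.88% for Dlx1 and 5.63% for Dlx6os1 at a median of 2192 UMIs. With 320 such nuclei the intervals are wide, and neither excitatory share can be told from theirs. The Dlx2 shares were 1.03% and 0.313% (1 of 320 nuclei, interval 0.0552 to 1.75%), which also overlap. The 328 endothelial-like nuclei had 5.49% for Dlx1, 1.22% for Dlx2 and 7.93% for Dlx6os1, at a median of 2703 UMIs. Of the excitatory neuron-like nuclei with a UMI, 93.0% for Dlx1, 98.1% for Dlx2 and 85.1% for Dlx6os1 had exactly 1, and the highest count was 22 UMIs of Dlx6os1.

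As a share of the inhibitory neuron-like level in the same animal, the residual signal had a median of 3.66% for Dlx1, 7.95% for Dlx2, 4.51% for Dlx5, 3.45% for Dlx6 and 0.953% for Dlx6os1. The shares of 12 other inhibitory genes ranged from 0.836% for Erbb4 to 49.8% for Meis2, a gene also active in other forebrain cells, with Gad1 at 0.947%, Gad2 at 1.27% and Nrxn3 at 0.918%. Dlx6os1 thus lay with Gad1, Nrxn3 and Erbb4, and Dlx1 and Dlx2 lay above them. The Dlx2 to Dlx1 ratio was 0.453 (0.380 to 0.659) in excitatory neuron-like nuclei, above the 0.200 (0.162 to 0.227) of inhibitory neuron-like and the 0.155 (0.142 to 0.180) of inhibitory progenitor-like nuclei without overlap. Radial glia-like nuclei had a like ratio of 0.457 (0.314 to 0.689), and excitatory intermediate progenitor-like nuclei one of 0.52 (0.255 to 0.721), so it is not particular to excitatory neurons. The Dlx6os1 to Dlx1 ratio of excitatory neuron-like nuclei was 2.05 (1.58 to 4.85), with medians of 5.41 in run 1 and 1.77 in run 2.

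The residual Dlx6os1 differed between replicate numbers within each genotype. In excitatory neuron-like nuclei it was at 25.0, 15.5 and 13.4 CPM in WT 1, 2 and 3, at 41.3, 16.6 and 16.5 CPM in Het 1, 2 and 3, and at 31.1, 11.9 and 12.5 CPM in KO 1, 2 and 3. The animal numbered 1 was the highest of each genotype, and it was so for Dlx2 as well. It was so in 2 of 3 genotypes for Dlx1 and Dlx6 and in 1 for Dlx5. As a share of the inhibitory neuron-like level, Dlx1, Dlx2 and Dlx6os1 were highest in the animal numbered 1 of each genotype, and Dlx5 and Dlx6 were not. On this share it also held for all 12 other inhibitory genes except Isl1 and Meis2, and so for Gad1, Gad2, Erbb4 and Nrxn3. In these 3 animals Scrublet's automatic threshold marked 7.98 to 15.6% of barcodes as doublets in run 1 and 5.73 to 17.1% in run 2, against 4.66 to 9.02% and 0 to 2.86% in the other 6, so that the ranges overlap in run 1 and not in run 2. The residual Dlx6os1 was also a median of 1.93-fold higher in run 1 than in run 2, in 9 of 9 animals. The part of either in the residual signal was not tested.

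Removing doublets changed the residual level. Dlx6os1 in excitatory neuron-like nuclei was at 31.1 ± 11.4 CPM with no nuclei removed as doublets, 20.4 CPM with 5% of all barcodes removed and 15.8 ± 6.71 CPM with 10% of all barcodes removed, and the animal numbered 1 was the highest of each genotype in all 3 cases. Dlx2 moved less, from 4.17 ± 1.09 to 3.38 ± 0.714 CPM. Among excitatory neuron-like nuclei of 2000 to 3000 UMIs, 13.7% of the 395 with a Dlx6os1 UMI had a Gad UMI against 4.25% of the 13886 without. The shares with 3 or more of the 12 inhibitory genes were 26.1% and 9.33%. For Dlx1 they were 24.3% and 9.56%, for Dlx5 25.6% and 9.75% and for Dlx6 22.7% and 9.76%, whereas for the 118 nuclei with a Dlx2 UMI the share was 11.9% against 9.78%. What part doublets have in the residual signal was not tested further.

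**Figure D4:**
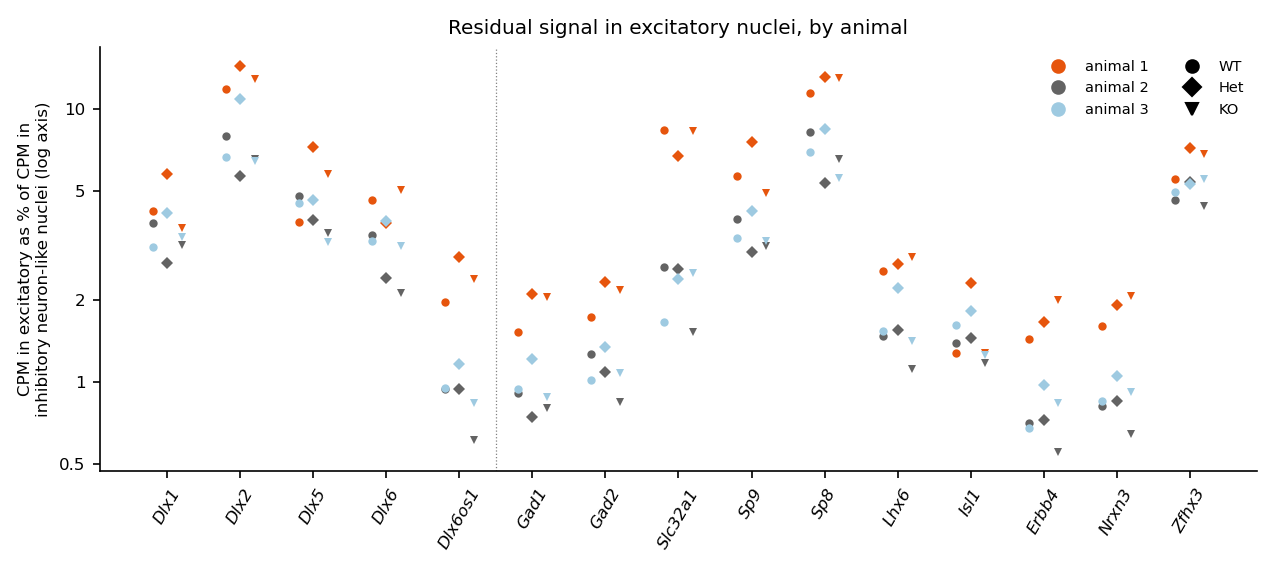
Level in excitatory neuron-like as a percentage of that in inhibitory neuron-like nuclei of the same animal (log axis), for the 5 members to the left of the dotted line and 10 of the 12 other inhibitory genes to its right; color gives the replicate number and shape the genotype. Meis2, at a median of 49.8%, is among those left out. The animals numbered 1 are highest in every genotype for Dlx6os1, Gad1, Gad2, Erbb4 and Nrxn3, but not for Dlx5, Dlx6 or Isl1.

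The genotype comparison asks whether loss of MYT1L alters the Dlx genes, and no member passed the test in any of the 3 classes tested. The other classes and the unnamed clusters were not tested, among them clusters 5 and 19 with Dlx1 at 148 and 95.6 CPM. Sums of counts per animal were fitted with edgeR's quasi-likelihood model over all 9 animals. A gene was called where its p, adjusted after Benjamini and Hochberg over all genes of the class, was under 0.05 and its log2 fold change beyond 0.2. Transcripts of Myt1l were counted in the mutant animals too, so their absence could not serve to check labels. Myt1l was at 1960 to 2253 CPM in excitatory neuron-like nuclei of WT, 2267 to 2537 of Het and 2605 to 2942 of KO animals, and edgeR called it higher in KO. These ranges, with both runs summed, did not overlap, and whether they bear out the labels of each run was not tested.

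In inhibitory progenitor-like nuclei the genotypes overlapped for every member. Dlx1 was at 1042, 935 and 1067 CPM in WT 1, 2 and 3, at 1077, 898 and 1028 CPM in Het, and at 895, 978 and 1120 CPM in KO. Dlx6os1 was at 2714, 3238 and 2707 CPM in WT, 2798, 3252 and 2641 CPM in Het and 2885, 3087 and 2779 CPM in KO, so that the animal numbered 2 was the highest of each genotype. Of the 5 members 0 were called by edgeR in either contrast, against 0% of all 12342 genes tested in KO and 0% in Het.

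Unadjusted p was under 0.05 for 0 of the 5 members and for 345 genes in KO and 326 in Het, and DESeq2 called 0 genes in both. The 95% interval of the KO log2 fold change was -0.19 to 0.17 for Dlx1, -0.23 to 0.22 for Dlx2, -0.19 to 0.40 for Dlx5, -0.23 to 0.28 for Dlx6 and -0.17 to 0.22 for Dlx6os1. A KO level of Dlx1 below 87.6% or above 112% of WT thus lies outside the interval, while for Dlx5 levels from 87.6% to 132% lie inside it.

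In inhibitory neuron-like nuclei Dlx1 was at 218, 199 and 235 CPM in WT 1, 2 and 3, at 204, 189 and 194 CPM in Het and at 175, 197 and 234 CPM in KO. Dlx2 was at 38.7, 42.6 and 49.7 CPM in WT, 33.0, 39.1 and 36.1 CPM in Het and 32.9, 44.8 and 46.7 CPM in KO. Of the Het values of Dlx2 only that of Het 2 lay within the WT range, and KO 1 alone of the KO animals lay below it. The log2 fold change of Dlx2 in Het was -0.26 (SE 0.13, edgeR adjusted p 1.00), the lowest of any member in this class.

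Dlx5 was at 21.4, 23.6 and 29.2 CPM in WT, 20.1, 27.7 and 27.2 CPM in Het and 17.0, 30.2 and 31.3 CPM in KO. Dlx6 was at 32.6, 31.4 and 34.8 CPM in WT, 31.0, 32.4 and 30.6 CPM in Het and 22.5, 35.5 and 35.6 CPM in KO. KO 1 was the lowest of the 9 animals for Dlx1, Dlx2, Dlx5 and Dlx6, and the other KO animals lay above every WT animal for Dlx5 and Dlx6. KO 1 also had the fewest nuclei, with 3340 in this class.

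Dlx6os1 was at 1273, 1640 and 1408 CPM in WT, 1435, 1765 and 1419 CPM in Het and 1302, 1935 and 1487 CPM in KO. The animal numbered 2 was again the highest of each genotype, and in each numbered trio KO was above WT. The log2 fold change in KO was 0.16 (SE 0.15, edgeR adjusted p 0.969). A block for the replicate number gave 0.15 (SE 0.052, edgeR adjusted p 0.264).

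In this class 0 of 5 members were called in either contrast, against 0.0162% of 18501 genes in KO (3 genes, Nr6a1os, Maml2 and Slc9a9, named after their values were seen) and 0% in Het. Unadjusted p was under 0.05 for 0 of the 5 members, for 1014 genes in KO and for 345 in Het. With the block it was under 0.05 for Dlx2 and Dlx6os1 in Het and for Dlx6os1 in KO, beside 879 and 2114 genes, and none of the 3 held after adjustment by edgeR over all genes (adjusted p 0.991, 0.991 and 0.264). Dlx1 and Dlx2 were lower and Dlx6os1 higher in Het than in the WT animal of the same number in 3 of 3 pairs, and in KO this held for Dlx1 and Dlx6os1. DESeq2 called 21 genes in KO and 0 in Het, and 0 members. Medians over the members were -0.03 in KO and -0.05 in Het on the log2 scale, beside -0.0072 and -0.00081 over all genes tested.

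In excitatory neuron-like nuclei, where the members are residual, the KO contrast had the most calls of the 3 classes. There 1.52% of 18556 genes were called in KO, 183 higher and 99 lower, and 0% in Het, with an unadjusted p under 0.05 for 2549 genes in KO and 643 in Het. DESeq2 called 436 genes in KO and 0 in Het. Of the 5 members 0 were called in KO and 0 in Het by edgeR or DESeq2, with 0 at an unadjusted p under 0.05 in the edgeR fit without the block. Beside a share of 1.52%, 0 calls among so few genes says nothing particular to them. The study names Dlx5 and Dlx6 among factors whose timing of expression was disrupted along its modeled course of excitatory neurons. It describes these factors as generally de-repressed in Het and KO. That course was not examined here. In the class sums the log2 fold changes of Dlx5 and Dlx6 were -0.08 and -0.28 in KO. They were 0.20 and -0.23 in Het, and all these intervals include 0. Dlx6os1 had a log2 fold change of 0.48 in Het (SE 0.39, 95% interval -0.35 to 1.31, edgeR adjusted p 0.999), with Het 1 alone above every WT animal. With the block it was 0.42 (SE 0.10, edgeR adjusted p 0.209, unadjusted p under 0.05 as for 1443 genes), and Het was above the WT animal of the same number in 3 of 3 pairs. Without Het 1 the fold change was -0.08, and without the filter on low counts it was 0.48 and called (edgeR adjusted p 0.0098). In KO, Dlx2 and Dlx6 were below the WT animal of the same number in 3 of 3 pairs, with edgeR adjusted p of 0.721 and 0.592 with the block. Dlx1, Dlx5 and Dlx6os1 were above it in 1 of 3.

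**Figure D5:**
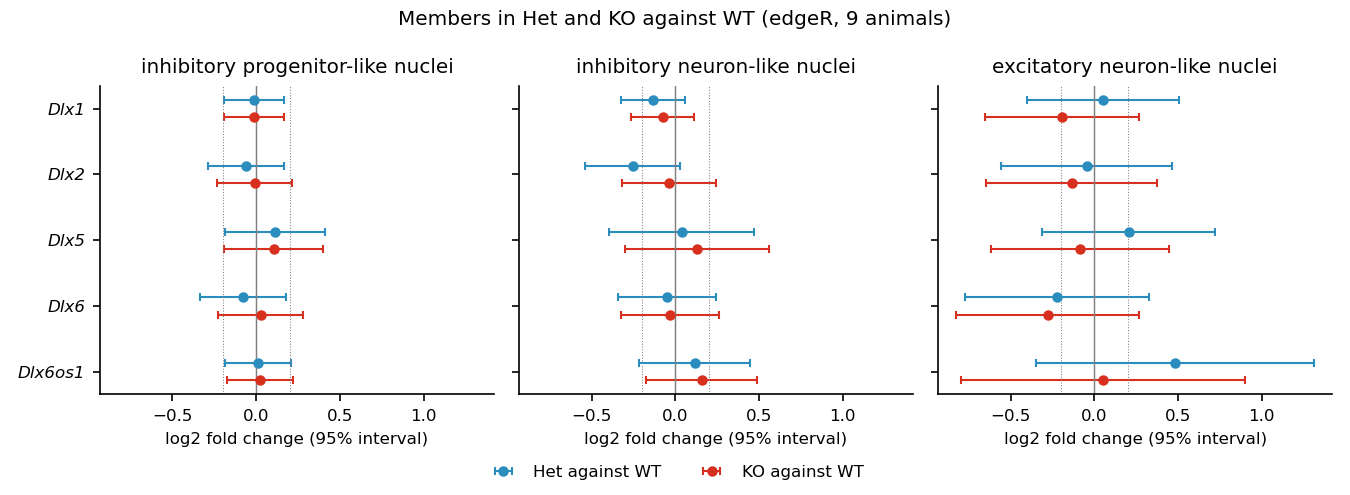
Log2 fold changes of the members in Het and KO against WT, with 95% intervals, from edgeR over 9 animals; dotted lines mark the size of 0.2 that a call needed. The fit drawn has no block for the replicate number. Every interval includes 0, and those in excitatory neuron-like nuclei, where the members are residual, are the widest for every member. With the block, unadjusted edgeR p was under 0.05 for Dlx6os1 in Het of both neuron-like classes. In inhibitory neuron-like nuclei it was so for Dlx2 in Het and Dlx6os1 in KO as well, and none held after adjustment.

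In single inhibitory clusters 44 of 45 pairs of member and cluster passed the filter on low counts, which left out Dlx2 in cluster 18. None was called by edgeR or DESeq2 in KO or in Het, against 0.016% of all 100255 pairs of gene and cluster in KO and 0% in Het. Unadjusted p was under 0.05 for 0 member pairs in KO and 1 in Het, and for 5180 and 3179 pairs of any gene. Log2 fold changes of the members ran from -0.25 (Dlx6 in cluster 17) to 0.59 (Dlx5 in cluster 20, where it was at 4.40 to 16.2 CPM and 4 to 24.5 UMIs per animal) in KO. In Het they ran from -0.40 (Dlx2 in cluster 6, the pair with an unadjusted p under 0.05) to 0.35 (Dlx5 in cluster 21).

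All 3 KO animals lay outside the WT range on the same side for no member in any of the 9 clusters. In Het this occurred for Dlx2 and for Dlx6 in 1 cluster each, both below WT. Dlx6os1 was highest in the animal numbered 2 of every genotype in 5 of the 9 clusters, and Dlx6 was lowest in KO 1 in 6 of 9.

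Other genes of the inhibitory program were counted in the same fits, where calls were rare or absent over all genes (0% in progenitor-like nuclei, 0.0162% in neuron-like nuclei of KO and 0% of Het), so 0 calls among so few genes says nothing particular to them. Of 8 inducers of the subpallial progenitor such as Gsx2 and Nkx2-1, 7 were tested in inhibitory progenitor-like and 6 in inhibitory neuron-like nuclei, and 0 were called in either direction in KO or Het by edgeR. Of 22 transcription factors that act with or after Dlx, such as Sp9 and Lhx6, 21 and 22 were tested and 0 called.

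The 4 genes of GABA synthesis and transport and the 11 of migration and adhesion (10 tested in progenitor-like nuclei) also had 0 calls in both classes. Unadjusted p was under 0.05 for 1 inducer in Het progenitor-like nuclei, of 42 list genes and beside 2.64% of all genes, and for 1 migration gene in KO neuron-like nuclei, of 43 and beside 5.48%. In inhibitory neuron-like nuclei of KO, Gad1 had a log2 fold change of 0.10 (SE 0.065) and Lhx6 of 0.20 (SE 0.099), with edgeR adjusted p of 0.9499 and 0.928. Median log2 fold changes of the 4 lists lay between -0.08 and 0.11 in KO and between -0.08 and 0.16 in Het over both classes, beside medians of all genes within 0.01 of 0. In excitatory neuron-like nuclei edgeR called 0 list genes in either contrast, with an unadjusted p under 0.05 for 2 transcription factors and 3 migration genes in KO and 1 transcription factor in Het, of 42 list genes tested and beside 13.7% of all genes in KO and 3.47% in Het. DESeq2 called 0 genes of the 4 lists in each of the 3 classes and both contrasts.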

How the data were processed

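The deposited matrices hold expected counts, estimated counts of UMIs per gene and nucleus, which the authors made with ScaleRna v1.4 on mm10 and its cell caller from v1.5; 6.70 to 8.71% of entries per library are not whole, and the sources used here name no annotation release. The submitters' processing notes name Seurat 4.3.0, DESeq2 1.38.3 and Scanpy 1.12.0. Groups were taken from sample titles, since the genotype tag of run 1 reads WT for every library. Library totals were 25300676 to 93334845 UMIs.

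Nuclei were kept with 300 to 3000 genes, 800 to 6000 UMIs, no more than 1% mitochondrial UMIs and a log ratio of genes to UMIs of at least 0.9. The 5% of all barcodes with the highest doublet score in each library were removed with scanpy 1.11.5 (Scrublet), because the automatic threshold marked 0% in 1 library. Some of these barcodes also failed the other limits, so a smaller share of nuclei was lost. In WT 2, 3972 of 4000 nuclei within the limits were kept in run 1 and 21592 of 22374 in run 2. Clustering used 3000 variable genes without the members, 50 principal components, 20 neighbours and Leiden at resolution 1. Clusters were named where at least 3 markers of a list were detected at 10 CPM and 1.5-fold, by a rule set after seeing the data, so names need not match the study's. Leading genes of a cluster are those with the largest fold over other nuclei at 50 CPM or more.

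Counts were summed over runs per animal and class, rounded, and tested with edgeR 4.0.16 (filterByExpr, TMM, quasi-likelihood, genotype as the only term, two-sided) and, as an alternative, DESeq2 1.42.0. Named genes were the members, the 3 genes most like each, list members called, Myt1l, and the 3 leading genes of each inhibitory cluster; others are named as examples of a list, as its extremes, as markers of a cluster or, where said, after their values were seen. Some list genes are not reported here by name. The members and lists were chosen with earlier results of these data known.

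Deviations of same-numbered animals from their genotype means correlated at 0.123 to 0.299 in inhibitory neuron-like and 0.106 to 0.265 in excitatory neuron-like nuclei, above 0.1 in all 9 pairs of each, so the numbers were taken to pair the animals there; in inhibitory progenitor-like nuclei 2 of 9 pairs were below 0.1. The labels do not say what a number marks, and the study drew on 3 litters.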

Additional observations from a re-analysis of the deposited data

Results flagged for a closer look

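Rows of the same loci that no comparison used also held UMIs. Dlx1as, antisense across Dlx1, had 41850.6 UMIs in the nuclei kept, 36541.8 of them in inhibitory and 1071.3 in excitatory neuron-like nuclei. Dlx6os2, inside Dlx6 and on the strand of Dlx6os1, had 4873.5 UMIs, 4491.5 of them in inhibitory nuclei. The second row named Dlx6os1, a 146-base RNA overlapping the start of the main gene, had 4 UMIs, all in inhibitory nuclei, which at a place shared with the main gene show no signal of its own. These rows were not compared between genotypes.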

How the results depend on the processing

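No member was called in any class or cluster and contrast tested, and of 172 recounts under the alternatives 171 also gave 0. The exception was Het against WT in excitatory neuron-like nuclei without a filter on low counts, which called 1 member, Dlx6os1 (log2 fold change 0.48, edgeR adjusted p 0.0098, 41426 genes tested). Its adjusted p was 0.209 to 1.00 under the other alternatives and its log2 fold change -0.08 to 0.76 over all 22, with the lowest value, and the only one below 0, when Het 1 was left out. Leaving out each animal in turn gave 0 called members throughout (lowest and highest 0).

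The replicate number as a block, which fits the pairing, gave 0 called members in each class and cluster, although it raised the genes called in KO from 282 to 1383 in excitatory neuron-like and from 3 to 117 in inhibitory neuron-like nuclei, and in Het from 0 to 7 and from 0 to 1. The 6 animals numbered 2 and 3, an alternative chosen after seeing the data, also gave 0.

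A fold change within 1 SE of 0 was taken to have no direction. Of 656 recomputed member fold changes 75 had another sign than the reported value, and 0 of these lay beyond 1 SE on both sides. Of 105 recomputed WT levels 21 moved by 1 SD of the WT animals or more, 13 of them with run 1 alone, where Dlx2 in inhibitory progenitor-like nuclei of WT was at 83.4 CPM. In excitatory neuron-like nuclei 0.332% had a Dlx5 UMI and 0.326% a Dlx6 UMI (means over animals), so that 13 to 25 Dlx5 and 12 to 24 Dlx6 UMIs per animal lie behind their levels there.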
